A study of Caenorhabditis elegans with 2 samples.

Results

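The genes described here encode translation factors and aminoacyl-tRNA synthetases of the nematode Caenorhabditis elegans. They were taken by symbol from the Ensembl annotation of WBcel235: every protein-coding gene whose symbol begins with eif-, iff- or eef-, or consists of 1 letter followed by ars-. The rule gave 65 of the 19973 protein-coding genes on the nuclear chromosomes, of which 27 were initiation factor and eIF5A genes (eif-, iff-), 6 were elongation factor genes (eef-) and 32 were synthetase genes. ZTF-6, a zinc finger protein, was mapped on chromatin by ChIP-seq, in which DNA bound to a protein is precipitated with an antibody and sequenced. All animals were of strain RW12301, with the genotype st12301[ztf-6::TY1::EGFP::3xFLAG] I, in which CRISPR had been used to insert TY1, EGFP and 3xFLAG tags at ztf-6; per the labels the precipitation used an antibody against GFP. They were whole young adults at 62 hours, from populations that had been bleached and then synchronised by starving the L1 larvae. The labels give 2 biological replicates, all of 1 genotype, stage and treatment, so no difference between conditions could be tested. Because whole animals were used, a strong signal in few cells and a weak signal in many cannot be told apart.

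In eukaryotic translation, initiation factors bring the initiator tRNA and the ribosomal subunits to the start codon of an mRNA, and elongation factors then deliver each charged tRNA and move the ribosome along. Factor eIF5A, the product of the iff- genes, helps ribosomes through difficult peptide bonds. Aminoacyl-tRNA synthetases load each tRNA with its amino acid, and animals have sets of them for the cytosol and for the mitochondrion. Genes of this machinery are transcribed at high levels in growing tissues, as are the genes of the ribosomal proteins.

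The authors deposited their sites as peak lists, and the signal printed here is their own value for each peak, and its scale is not stated. It serves only to describe and order peaks within 1 list, so values of replicate 1 and replicate 2, given side by side, are not compared as levels. A gene was given the highest signal among peaks whose summit lay within 500 bp of one of its annotated transcript starts. A ZTF-6 peak that passed the authors' threshold on the irreproducible discovery rate (IDR, at most 0.01) lay at 10 of the 65 genes (15.4%) in at least 1 of the 4 thresholded lists, against 1.88% of all protein-coding genes. The sequences under 7 of those summits are printed below, to show which short words these sites hold, and no word marked is common to all 7; the window is up to 75 bases each side of the summit, 5′ to 3′ on the strand of the gene, cut where an annotated untranslated region begins. The summit is base 76 of each run, except for fars-3, where it is base 49. Sequence was read from the RefSeq copy of WBcel235 (ce11). In iff-2, eef-1G and eef-1A.2 the capitals mark the word TACGCA on either strand, within a longer shared run in eef-1A.2.
iff-2 (chrII:8561368-8561514, minus strand): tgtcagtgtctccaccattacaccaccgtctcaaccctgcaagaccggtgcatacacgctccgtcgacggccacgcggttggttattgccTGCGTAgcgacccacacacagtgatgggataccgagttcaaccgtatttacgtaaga
eef-1G (chrV:10965584-10965718, plus strand): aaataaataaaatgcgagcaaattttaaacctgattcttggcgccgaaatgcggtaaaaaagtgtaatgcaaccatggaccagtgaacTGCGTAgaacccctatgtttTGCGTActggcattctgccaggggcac
eef-1A.2 (chrX:7823263-7823413, plus strand): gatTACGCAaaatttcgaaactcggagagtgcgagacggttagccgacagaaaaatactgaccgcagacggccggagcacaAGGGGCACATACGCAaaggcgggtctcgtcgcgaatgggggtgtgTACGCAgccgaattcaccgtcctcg
In ears-2 and eif-3.B the capitals mark CCGCGC on either strand, with overlapping copies run together.
ears-2 (chrIV:390469-390553, minus strand): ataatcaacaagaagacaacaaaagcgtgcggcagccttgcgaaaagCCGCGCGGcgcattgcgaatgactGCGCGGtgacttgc
eif-3.B (chrII:14795092-14795242, plus strand): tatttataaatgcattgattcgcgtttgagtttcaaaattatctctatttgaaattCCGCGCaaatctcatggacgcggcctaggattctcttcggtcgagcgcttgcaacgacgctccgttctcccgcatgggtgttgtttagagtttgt
In eef-1A.1 the capitals mark GAGAGA, and in fars-3 they mark GGTTCGA, the core of the box B promoter element of tRNA genes.
eef-1A.1 (chrIII:6971989-6972139, minus strand): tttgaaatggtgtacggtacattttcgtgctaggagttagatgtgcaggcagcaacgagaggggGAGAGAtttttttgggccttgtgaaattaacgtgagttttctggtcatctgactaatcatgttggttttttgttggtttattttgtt
fars-3 (chrII:8464513-8464636, plus strand): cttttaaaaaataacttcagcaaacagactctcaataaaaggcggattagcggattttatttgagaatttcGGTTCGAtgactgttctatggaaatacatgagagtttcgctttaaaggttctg
The sites of eef-1G and eef-1A.2 share a run of 15 bases, shown because it is the longest run common to any pair of the 10 sites. It occurs 5 times in the genome on either strand, and lies at chrV:10965711-10965725 near eef-1G, partly beyond the printed window, and at chrX:7823344-7823358 near eef-1A.2.
eef-1G and eef-1A.2 shared run: AGGGGCACATACGCA

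The conservative list of the series, which rests on both replicates, placed a peak at 6 of the 65 genes (9.23%), against 1.46% of all protein-coding genes. These were iff-2, eef-1G, eef-1A.2, ears-2, eif-3.C and yars-2. A second thresholded list of the series gave 9 genes (13.8%, against 1.55% of all protein-coding genes), with eef-1A.1, eif-3.B and fars-3 added. Replicate 1 alone gave 3 genes (4.62%, against 0.661%), namely iff-2, eif-3.C and eif-1. Replicate 2 alone gave 2 genes (3.08%, against 0.696%), namely iff-2 and eef-1G. Only iff-2 was in all 4 lists. In each list the share of these genes was above the share of all protein-coding genes, while the number of genes was small and depended on the list.

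**Figure D1:**
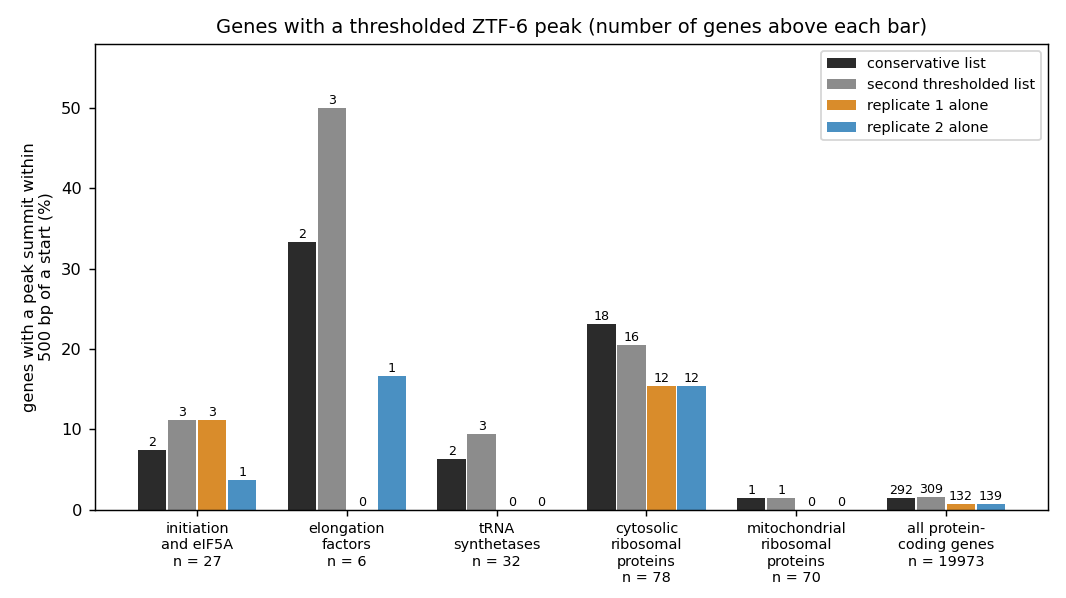
Percentage of genes with a thresholded ZTF-6 peak summit within 500 bp of a start (vertical axis) in the authors' 4 thresholded lists (bar colours), for the 3 classes of translation genes, then ribosomal protein genes and all protein-coding genes; each bar carries its number of genes. The elongation factors had 2 of 6 genes with a peak in the conservative list, and the cytosolic ribosomal protein genes 18 of 78.

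By class, in the conservative list a peak lay at 2 of 6 elongation factor genes (33.3%), 2 of 27 initiation and eIF5A genes (7.41%) and 2 of 32 synthetase genes (6.25%), against 1.46% of all protein-coding genes. In the list of replicate 1 alone the order was another, with 0 of 6, 3 of 27 and 0 of 32, and in that of replicate 2 alone the counts were 1 of 6, 1 of 27 and 0 of 32. The classes were not tested against each other. Behind the conservative list stands a longer ranked list, with 74251 peaks and an IDR for each, called the ranked list of the series from here on. At a looser limit in it, an IDR of at most 0.05, the counts were 5 of 6, 3 of 27 and 2 of 32, or 10 of 65 in all (15.4%, against 2.72% of all protein-coding genes). With a stricter limit of 0.001 a single gene was left, iff-2. In the ranked list behind the second thresholded list, the same limit gave 4 of 6, 4 of 27 and 3 of 32, or 11 of 65 in all (16.9%, against 2.96%), so which class gained at the looser limit depended on the list.

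The elongation factor genes stood high in the ranking as a class. The ranked list of the series had a peak near a start of 51 of the 65 genes (78.5%, against 60.7% of all protein-coding genes), so presence in that list separates genes little. With genes that had no peak set to 0, the median of the highest signal was 67.4 over the 6 elongation factor genes, 27.2 over the 27 initiation and eIF5A genes and 25.9 over the 32 synthetase genes, against 19.8 over all protein-coding genes. All 6 elongation factor genes were in the top 10% of protein-coding genes, against 8 initiation and eIF5A genes and 4 synthetase genes. In the ranked list of replicate 1 alone 5 of the 6 elongation factor genes were in the top 10%, and in that of replicate 2 alone all 6 were. The synthetase genes counted 4 and 6 of 32 in the same lists.

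**Figure D2:**
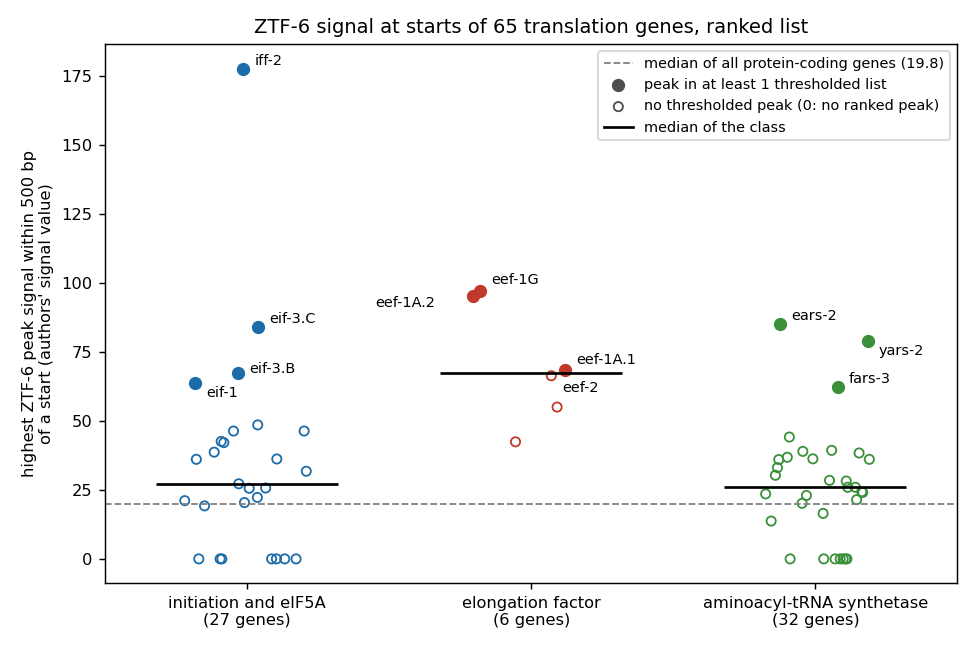
Highest ZTF-6 signal within 500 bp of a start (vertical axis, the authors' signal value) for each of the 65 genes in the ranked list of the series, by class; filled points have a peak in at least 1 thresholded list, bars are class medians, points at 0 have no ranked peak and the dashed line is the median of all protein-coding genes. The 6 elongation factor genes lie between 42.4 and 96.9, and iff-2 stands above every other gene at 177.6.

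Of the elongation factor genes, eef-1G, which encodes elongation factor 1-gamma, a subunit of the complex that recharges elongation factor 1-alpha with GTP, had a signal of 96.9 (chromosome V, 10965519 to 10965798; summit 60 bp upstream of the start). Its signal was 32.9 in replicate 1 and 64.2 in replicate 2. It reached an IDR of at most 0.01 in replicate 2 (0.0011) and not in replicate 1 (0.151). The authors' q-value for the peak in the series list was 0.0442.

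The 2 genes for elongation factor 1-alpha, which carries charged tRNA to the ribosome, both had a peak. At eef-1A.2 the signal was 95.1 (chromosome X, 7823198 to 7823477; summit 316 bp upstream; IDR 0.0011, q 0.0457), with 59.3 in replicate 1 and 40.7 in replicate 2. At eef-1A.1 it was 68.5 (chromosome III, 6971924 to 6972203; summit 352 bp upstream; q 0.0983), with 41.1 in replicate 1 and 24.4 in replicate 2. The eef-1A.2 peak stood above that of eef-1A.1 within each replicate's list. No single-replicate IDR at these sites was at most 0.01. They were 0.0151 in replicate 1 and 0.228 in replicate 2 for eef-1A.2, and 0.0302 and 0.237 for eef-1A.1. The eef-1A.1 peak was in the second thresholded list only, with an IDR of 0.0386 in the ranked list of the series.

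The other 3 elongation factor genes had ranked peaks that passed no threshold. eef-2, which encodes the factor that moves the ribosome along the mRNA, had a signal of 66.3 with its summit 12 bp downstream of the start, 35.4 in replicate 1 and 31.6 in replicate 2. Its IDR of 0.0104 lay just outside the limit of 0.01. The largest IDR of the 6 genes in the conservative list, that of eif-3.C, lay inside that limit at 0.00275. In single replicates the IDR of the eef-2 peak was 0.861 in replicate 1 and 0.244 in replicate 2. eef-1B.1, for a beta-type subunit of the recharging complex, had 55.0 at a summit 453 bp downstream of its start. The signal was 24.5 in replicate 1 and 32.3 in replicate 2. The IDR of this peak was 0.0475 in the ranked list of the series and 0.650 in that behind the second thresholded list. eef-1B.2 had the lowest value of the class, 42.4, with 17.7 in replicate 1 and 27.6 in replicate 2.

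Among the initiation and eIF5A genes, iff-2 had the highest signal of all 65. iff-2 encodes an eIF5A protein, and its peak (chromosome II, 8561299 to 8561578; summit 72 bp upstream) had a signal of 177.6, the 28th highest of the 551 peaks of the conservative list. The signal was 73.4 in replicate 1 and 96.9 in replicate 2. In each replicate this was above every other gene of the 65, the next being eef-1A.2 at 59.3 in replicate 1 and eef-1G at 64.2 in replicate 2. Its IDR was 8.9e-05 in the series list, 0.00031 in replicate 1 and 7.1e-05 in replicate 2. The q-value of the same peak in the series list was 0.0654, above 0.05. In that list 2 of the 10 thresholded sites, those of eef-1G and eef-1A.2, had a q-value at or under 0.05. Of the 551 peaks of the conservative list, which does not hold all 10 sites, 221 (40.1%) had one. In the thresholded lists of single replicates it was 136 of 215 peaks (63.3%) in replicate 1 and 1 of 253 (0.395%) in replicate 2. The paralogue iff-1 had a ranked peak with a signal of 48.5 (18.8 in replicate 1 and 28.6 in replicate 2; summit 15 bp downstream), below iff-2 in each replicate and with no thresholded peak.

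A peak also lay upstream of subunits of eIF3, the large factor that holds the small ribosomal subunit ready for mRNA. eif-3.C had a signal of 84.1 (chromosome I, 9979759 to 9980038; IDR 0.00275), with 50.3 in replicate 1 and 35.3 in replicate 2. eif-3.B had 67.2 (chromosome II, 14795027 to 14795306; IDR 0.0244), with 36.4 in replicate 1 and 26.8 in replicate 2. Both summits lay 237 bp upstream of their starts. The single-replicate IDRs were 0.00486 in replicate 1 and 0.840 in replicate 2 for eif-3.C. For eif-3.B they were 0.0383 and 0.364. A thresholded peak in any list thus lay at 2 of the 11 eif-3 genes (18.2%), against 1.88% of all protein-coding genes. The other 9 had none. The highest of these 9 was eif-3.E at 46.3 (22.1 in replicate 1 and 24.9 in replicate 2), and eif-3.F, eif-3.H and eif-3.L had no peak in the ranked list of the series.

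Replicate 1 alone gave a thresholded peak at eif-1, which encodes a factor of the start codon search. Its signal was 49.0 in replicate 1 (IDR 0.0064), no peak of replicate 2's ranked list overlapped it, and the ranked list of the series gave 63.9 at an IDR of 0.742. In the second ranked list the same peak had an IDR of 0.0132, just outside 0.01. The summit was 441 bp upstream of eif-1 and 18 bp upstream of the oppositely oriented vps-24, which encodes a protein of membrane sorting. The 10 genes with symbols beginning eif-2 encode the factor that brings the initiator tRNA and its exchange factor eIF2B, among others. A thresholded peak in any list lay at 0 of these 10, against 1.88% of all protein-coding genes. For so few genes a count of 0 is near that share. The highest of these was eif-2beta at 46.3, where the peak overlapping that site had 11.3 in replicate 1 and 32.5 in replicate 2.

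Of the 32 synthetase genes, 3 had a thresholded peak in any list (9.38%, against 1.88% of all protein-coding genes). In the lists of single replicates 0 of 32 had one, where the share of all protein-coding genes was 0.661% in replicate 1 and 0.696% in replicate 2. ears-2 encodes a glutamyl-tRNA synthetase that RefSeq names as mitochondrial. Its signal was 85.2 (chromosome IV, 390338 to 390617; summit 10 bp upstream; IDR 0.0017), with 36.4 in replicate 1 and 58.8 in replicate 2. yars-2, for a tyrosyl-tRNA synthetase, had 79.1 (chromosome IV, 4712458 to 4712737; summit 26 bp downstream; IDR 0.0027), with 46.5 in replicate 1 and 37.3 in replicate 2. fars-3, for the beta subunit of a phenylalanyl-tRNA synthetase, had 62.4 (chromosome II, 8464421 to 8464700; summit 287 bp upstream; IDR 0.105 in the ranked list of the series) and was in the second list only, with 30.4 in replicate 1 and 22.4 in replicate 2. Single-replicate IDRs at these sites ran from 0.068 for ears-2 in replicate 1 to 0.559 for fars-3 in replicate 2.

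The synthetase genes were also split by the number in the symbol. A thresholded peak in any list lay at 0 of the 20 ending in 1, at 2 of the 11 ending in 2 (18.2%) and at the 1 ending in 3. The share of all protein-coding genes was 1.88%, so 0 of 20 is near that share. These numbers are small and were not tested against each other. The partner genes of the bound synthetases, ears-1 and yars-1, had no peak in any ranked list, and fars-1 had 21.4 in the series list. Among synthetase genes without a thresholded peak the signal reached 44.1 at pars-1, for a prolyl-tRNA synthetase, and 39.3 at cars-1, for a cysteinyl-tRNA synthetase. The 22 of these 29 genes with a ranked peak ran from 13.7 to 44.1, and the other 7 had none.

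**Figure D3:**
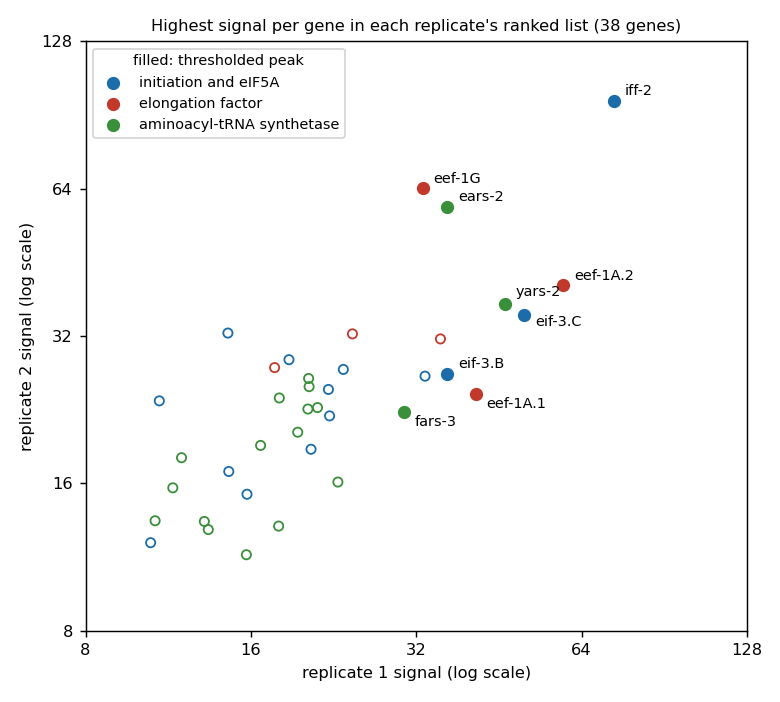
Highest signal of each gene in the ranked list of replicate 1 (horizontal axis) and of replicate 2 (vertical axis), both on log scales, for the 38 of 65 genes with a peak in both; colours give the class and filled points have a thresholded peak. iff-2 is highest in both lists, followed by eef-1A.2 in replicate 1 and by eef-1G in replicate 2.

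The order of the genes by their highest signal was similar in the replicates. Each value is the gene's highest peak within 500 bp in that list, so the peaks of a gene can be different sites. At eif-2beta, for example, they lay 493 bp downstream of a start in replicate 1 and 17 bp downstream in replicate 2. Over the 38 genes with a peak in both single-replicate ranked lists, Spearman's coefficient was 0.727 and Pearson's coefficient of the log2 signal was 0.767, or 0.692 without iff-2 and eef-1A.2. The points share 2 libraries and a control, so these are descriptions across genes. A further 8 genes had a peak in replicate 1 only, 9 in replicate 2 only and 10 in neither. At the 9 thresholded sites with an overlapping peak in both, the peak's percentile among all peaks of the ranked list ran from 96.2 (fars-3) to 99.8 (iff-2) in replicate 1 and from 81.4 (fars-3) to 99.9 (iff-2) in replicate 2. The single-replicate summits at these sites lay 8 to 83 bp apart, with a median of 38 bp.

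The summits lay mostly upstream. Of the 10 thresholded sites 9 were upstream of the gene's nearest start, with a median position of 237 bp upstream, and only the yars-2 summit was downstream. For eif-1 the position is that of the series peak (IDR 0.742), and its thresholded peak in replicate 1 lay 394 bp upstream. With each gene's highest ranked peak taken instead, the share upstream was 31 of 51 for these genes (60.8%). For all protein-coding genes it was 5843 of 12125 (48.2%). The share upstream among thresholded peaks of all protein-coding genes is not given here, so the 9 of 10 has no like comparison. At 7 of the 10 sites the start of the translation gene was the nearest start of any gene.

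**Figure D4:**
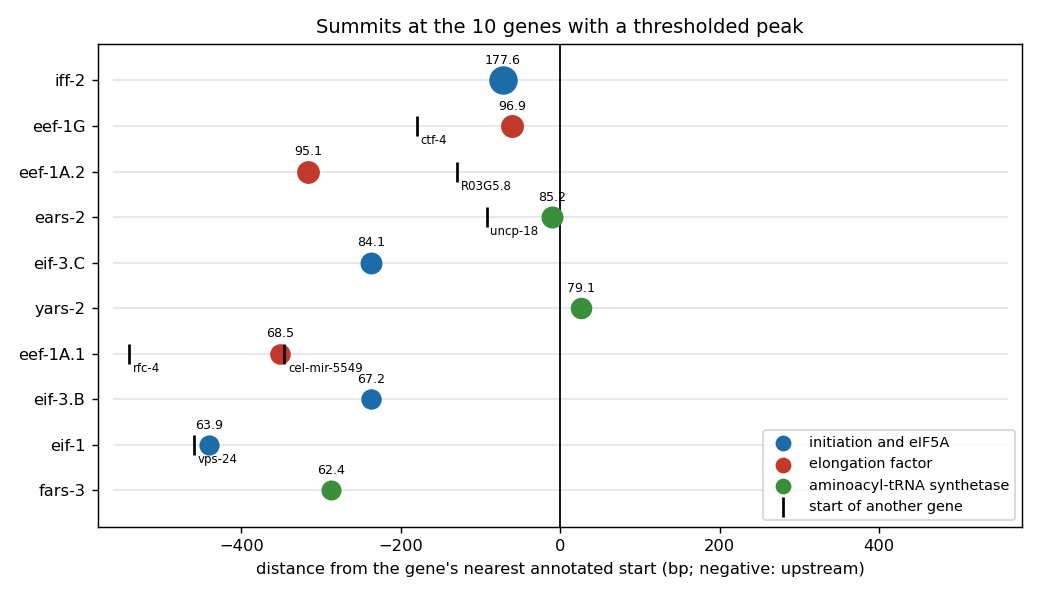
Distance of the peak summit from the gene's nearest annotated start (horizontal axis, bp, negative upstream) for the 10 genes with a thresholded peak, from the highest signal at the top; circles grow with the signal, printed above them, and black ticks mark starts of other genes within 500 bp of the summit. Of the 10 summits 9 lie left of 0, and 4 rows have the start of another protein-coding gene.

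At 4 of the 10 sites another protein-coding gene started within 500 bp of the summit, so the peak cannot be given to 1 gene. The eef-1G summit lay 120 bp upstream of ctf-4, which encodes a WDHD1-like protein of DNA replication. The ears-2 summit lay 82 bp upstream of uncp-18, for a syntaxin-binding protein. The eef-1A.1 summit lay 189 bp upstream of rfc-4, for a subunit of the replication clamp loader, and 6 bp upstream of the annotated microRNA cel-mir-5549. The remaining case is eif-1 with vps-24, described above. The eef-1A.2 summit was also 187 bp downstream of the start of the non-coding RNA gene R03G5.8, nearer than that of eef-1A.2. No tRNA, snoRNA or snRNA gene started within 500 bp of any of the 10 summits. Over all 551 peaks of the conservative list 84 had a tRNA start (15.2%), 44 a snoRNA start (7.99%) and 17 a snRNA start (3.09%) at that distance. The sets are unlike. The 10 sites were chosen for a nearby protein-coding start and are not all in that list, while the 551 were taken wherever they lay.

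The sequences under the 10 summits were compared with those of other peaks and of upstream regions. Their GC content over 151 bp had a median of 43.0% and ran from 32.5% at fars-3 to 57.0% at eef-1A.2, against a median of 49.0% for the 551 conservative peaks and 33.8% for windows of the same length upstream of all protein-coding genes. The part of GC content in the peak calls was not tested. Of 7 words listed for the search and read on both strands within 50 bp of the summit, GGTTCGA was found at fars-3 alone (7.99% of the 551 peaks, 0.481% of upstream windows) and GAGAGA at eef-1A.1 alone (18.0% of peaks, 8.42% of upstream windows). The other 5 words were at none of the 10. Of the 551 peaks, CACGTG (an E-box) was at 4.90% (1.79% of upstream windows), GGGCGG (a GC box) at 7.80% (2.55%) and TGGCNNAGT (box A of tRNA genes) at 5.63% (0.806%). TATAAA (the core promoter element bound by TBP) was at 5.08% of the peaks and 13.4% of upstream windows, and TTTCAG (a trans-splice acceptor) at 6.53% and 15.1%. Of the 234 peaks nearest to protein-coding starts, GGTTCGA was at 3.42% and GAGAGA at 16.2%. In the same 234, CACGTG was at 4.7%, GGGCGG at 8.97%, and TGGCNNAGT, TATAAA and TTTCAG each at 5.13%.

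A pair of further words was chosen after the sequences had been seen, so their counts are descriptions. TACGCA was at 3 of the 10 sites, those of iff-2, eef-1G and eef-1A.2, which have the 3 highest signals. In windows of 151 bp it was at 9.07% of the 551 peaks, at 12% of the 234 peaks nearest to protein-coding starts and at 3.63% of upstream windows. The printed windows hold 1 copy at iff-2, 2 at eef-1G and 3 at eef-1A.2. CCGCGC was at 4 of the 10 sites, those of ears-2, eif-3.C, yars-2 and eif-3.B, and no site held both words. It was at 9.44% of the 551 peaks, 13.7% of the 234 and 2.6% of upstream windows. A shared run of at least 15 bases occurred in 1 of the 45 pairs of the 10 sites (2.22%), that of eef-1G and eef-1A.2. The length of 15 bases was itself taken from this pair, so a count of at least 1 was certain. Among the 234 peaks 182 of the 27261 pairs (0.668%) shared such a run, and the shares cannot be compared.

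Most of the translation genes had no thresholded peak, though they lacked one less often than protein-coding genes as a whole. The share with a thresholded peak in any list was 15.4%, against 1.88% of all protein-coding genes. With a ranked peak it was 78.5%, against 60.7%. Of the 55 translation genes without a thresholded peak 41 had a ranked peak, with signals from 13.7 to 66.3 and a median of 31.8. The other 14 had none in the ranked list of the series. Those 14 were 7 initiation factor genes, among them eif-2alpha and eif-6, and 7 synthetase genes, among them ears-1, wars-1 and yars-1. Among the 41 genes with a ranked peak the smallest IDR was 0.0104, that of eef-2.

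Other genes of translation were set beside these by a separate list. It held 24 genes found in the annotation, among them genes for further initiation factors and for cap-binding, poly(A)-binding, release, regulatory and mitochondrial elongation factors. Of these 24 genes, 1 had a thresholded peak in the conservative list (4.17%, against 1.46% of all protein-coding genes). This was drr-2, which encodes an eIF4H-like protein, with a signal of 141.9 in the conservative list (chromosome III, 13643605 to 13643884), 64.1 in replicate 1 and 81.4 in replicate 2. It was in all 4 thresholded lists, and its summit lay 175 bp upstream of drr-2 and 171 bp upstream of the oppositely oriented set-16.

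The ribosomal protein genes, the other large family of the translation machinery, were used as a comparison. In the conservative list a peak lay at 6 of the 65 translation genes (9.23%), against 18 of 78 cytosolic ribosomal protein genes (23.1%) and 1 of 70 mitochondrial ones (1.43%). The median of the highest ranked signal was 28.4 over the translation genes, against 44.6 over the cytosolic and 22.7 over the mitochondrial ribosomal protein genes. In the top 10% of protein-coding genes were 18 of the 65 translation genes (27.7%), against 42 of the 78 cytosolic (53.8%) and 5 of the 70 mitochondrial ribosomal protein genes (7.14%). In all 3 measures the translation genes lay between the ribosomal protein families, and the median of the 6 elongation factor genes (67.4) lay above that of the cytosolic ribosomal protein genes. These families were not tested against each other.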

How the data were processed

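Input was the authors' deposited peak lists of 2 replicates, alone and together; per the labels, positions are on ce11 and chromatin was sonicated to 200 to 800 bp. Per the deposited file lists, peaks derive from filtered alignments and a control alignment; neither the aligner nor the peak caller is stated. The authors deposited a signal per peak (scale not stated), a score scaled from the IDR up to 1000, and q-value and IDR as −log10 values. Depth is unknown from the lists, so no counting interval was computed. Replicates of 1 tagged strain cannot show what an untagged strain would give.

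Summits within 500 bp of any transcript start were assigned to that gene (Ensembl release 115, 6 nuclear chromosomes). Upstream windows, centred 150 bp upstream of starts, were 151 bp for GC content and the pair of words chosen later, and 101 bp for the words listed for the search. Sites were matched between lists by an overlap of at least 1 bp. No test was run (single group). Named are genes with a thresholded peak, the 5 others with the highest ranked signal, the eef-1A and iff paralogues, genes sharing a peak, and of the other translation genes those with a thresholded peak; pars-1, cars-1, ears-1, yars-1, fars-1, eef-1B.2, set-16 and the genes listed without a peak were named after their values were seen. The members and lists were chosen with earlier results of these data known. The assignment was tested on simulated data. Python 3.11.15, pandas 2.3.3, NumPy 2.4.6, SciPy 1.17.1 and pysam 0.24.0 were used. Alternatives were other lists, windows, IDR limits, nearest start and outermost start.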

Additional observations from a re-analysis of the deposited data

How the results depend on the processing

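The 6 genes with a peak in the conservative list became 2 to 3 in the list of a single replicate (initiation and eIF5A 1 to 3, elongation 0 to 1, synthetase 0 to 0). An IDR of at most 0.001 left 1 gene (initiation 1, elongation 0, synthetase 0), and every ranked peak at an IDR of at most 0.05 gave 10 (elongation 5); the second ranked list at that limit, added after seeing the data, gave 11 (initiation 4, elongation 4). A window of 200 bp gave 4 in all, with 1 initiation and 1 elongation gene, and counting only the nearest start gave 5, with 1 elongation gene. The second list (9), a window of 1000 bp (7), any base of the peak (6) and the outermost start (6) stayed within 1.5 times the main count. The median ranked signal of 28.4 became 16.1 to 18.1 in a single replicate's ranked list, 13.7 with a window of 200 bp and 38.4 with 1000 bp. The cause was not tested; the median signal of all peaks was 24.1 in the ranked list of the series, 15.9 in that of replicate 1 and 16.4 in that of replicate 2. For the 6 genes, 42 alternative values were sought: 10 had no peak (8 in single replicates, 2 at 200 bp), the 4 found in single replicates moved, and 28 were the identical peak in another list or window. With motif windows of 75 bp each side, chosen after seeing the data, TGGCNNAGT and TATAAA were each found at 1 site instead of 0. No paired analysis was possible because there is a single group. Unknown depth limits what can be said of genes without a peak.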
